A study of Homo sapiens with 6 samples.

Results

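AP-1 is a family of dimeric transcription factors, and its genes FOS, FOSB, FOSL1, FOSL2, JUN, JUNB, JUND and ATF3 were measured in MDA-MB-231 cells with and without overexpressed LARP6. They were chosen by symbol in the table of counts per gene, which held all 8 among its 28675 genes, and all 8 passed the filter on low counts. MDA-MB-231 is an established human line from a triple-negative breast cancer, that is, one without oestrogen receptor, progesterone receptor or HER2 amplification. Its RAS and RAF genes carry activating mutations. The series has 6 RNA-seq libraries, 3 with the genotype no-load control and 3 with LARP6 overexpression. LARP6 is a La-related protein that binds RNA. The labels give no treatment, time, vector or clone, and nothing in them says that the 3 libraries of each genotype were grown separately, so the spread behind every p-value may be technical. The study asked which RNAs LARP6 binds and regulates, and the gene-level counts bear on RNA levels.

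Each AP-1 protein carries a basic region that contacts DNA and a leucine zipper that joins it to a partner. JUN proteins pair with themselves, with FOS proteins or with ATF proteins, whereas FOS proteins need a JUN partner. FOS-JUN dimers bind the sequence TGACTCA, known as the TPA response element, and dimers with ATF proteins favour TGACGTCA, the cAMP response element. The genes respond to growth factors and stress through MAP kinases, and most of their mRNAs are short-lived, with AU-rich elements in the 3′ UTR. In mesenchymal breast cancer cells the pool is known for its FOSL1 protein, also called FRA-1.

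The libraries held 29409101 to 33387050 counts. LARP6 itself was at 40.7 to 44.2 CPM in the controls and 1995 to 2198 CPM in the LARP6 libraries, so each library matched its label (CPM is a gene's share of its library's counts in the usual per-million unit, with TMM scaling between libraries). Of the line's own markers, all 6 (VIM, CD44, AXL, CAV1, MSN and KRT18) were present, at means of 519 to 3248 CPM. Of 7 luminal and receptor markers, ESR1, PGR and FOXA1 were too low to test. ESR1 had 0 counts in all 3 control libraries, and ERBB2 had the highest level of the 7, at a mean of 56.0 CPM. Of 4 leukocyte and endothelial markers analysed, CD3E and LYZ were too low to test, and CD3E had 0 counts in all 3 LARP6 libraries. Their summed level was 5.05 to 7.74 CPM in controls and 5.98 to 7.06 CPM in LARP6 libraries, most of it PECAM1.

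Promoter and 3′ UTR sequences are shown first, because the genes are known for response elements in their promoters and decay elements in their mRNAs. The RefSeq table (GRCh38.p14) gave 250 bases before to 50 after the start of 7 of the 8 genes, with 2 windows for ATF3. FOSL1 was not among them. The windows of JUND, JUN, FOSL2 and ATF3 (the upstream one) are printed 5′ to 3′ on the gene's strand, with each match to TGACTCA, TGACGTCA or TGACATCA in capitals.
JUND, chr19:18281573-18281872, minus strand: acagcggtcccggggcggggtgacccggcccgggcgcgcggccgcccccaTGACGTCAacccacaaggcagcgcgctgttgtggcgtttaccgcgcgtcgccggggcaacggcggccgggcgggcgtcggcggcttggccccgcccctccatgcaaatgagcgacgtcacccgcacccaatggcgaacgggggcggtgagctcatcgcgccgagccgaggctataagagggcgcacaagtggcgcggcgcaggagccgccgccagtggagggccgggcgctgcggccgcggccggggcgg
JUN, chr1:58783998-58784297, minus strand: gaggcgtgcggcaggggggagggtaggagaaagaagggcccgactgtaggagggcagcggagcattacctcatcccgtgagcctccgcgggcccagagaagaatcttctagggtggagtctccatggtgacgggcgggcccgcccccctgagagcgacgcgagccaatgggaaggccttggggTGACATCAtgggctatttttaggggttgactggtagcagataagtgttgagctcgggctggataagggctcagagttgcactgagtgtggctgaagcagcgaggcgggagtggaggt
FOSL2, chr2:28392608-28392907, plus strand: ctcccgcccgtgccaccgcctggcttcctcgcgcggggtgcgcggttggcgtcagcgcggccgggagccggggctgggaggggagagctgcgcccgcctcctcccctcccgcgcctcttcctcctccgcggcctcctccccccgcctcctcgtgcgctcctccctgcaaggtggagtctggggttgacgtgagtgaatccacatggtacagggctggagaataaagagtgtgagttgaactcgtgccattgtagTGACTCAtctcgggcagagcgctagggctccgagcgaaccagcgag
ATF3, chr1:212565157-212565456, plus strand: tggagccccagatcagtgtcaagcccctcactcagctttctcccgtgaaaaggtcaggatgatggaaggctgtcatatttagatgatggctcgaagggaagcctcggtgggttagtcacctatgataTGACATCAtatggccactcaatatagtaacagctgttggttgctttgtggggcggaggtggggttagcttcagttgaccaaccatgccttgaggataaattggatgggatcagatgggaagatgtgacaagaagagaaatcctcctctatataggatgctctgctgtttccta

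Counted from the RefSeq start as +1, JUND held TGACGTCA from -200 to -193, and FOSL2 held TGACTCA from 5 to 11, just inside the transcript. TGACATCA, which differs from the cAMP response element by a single letter, lay from -67 to -60 in JUN and from -123 to -116 in ATF3. Both strands were searched and a palindrome was counted once, and the 3 motifs do not overlap at these places. Over all 35116 RefSeq windows of this length, 4.95% held TGACTCA, 1.85% TGACGTCA and 2.61% TGACATCA. FOS, FOSB and JUNB held none of the 3, and each had TATAAA within -33 to -25 of the start, which 11.5% of all windows held somewhere. A match describes letters in the window and not a bound site.

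AU-rich elements are built on the pentamer ATTTA, written here as DNA, and the longer TATTTAT is a core bound by decay proteins such as ZFP36. In the coding transcript chosen from GENCODE v29, all 8 genes had at least 1 ATTTA in the 3′ UTR, against 66.8% of 15915 protein-coding genes, and 7 had TATTTAT, against 30.8%. JUNB had 2 pentamers and no TATTTAT. FOSL2, with a 3′ UTR of 4864 bases, had 9 pentamers, and FOS, with 806 bases, had 5. The 30-base windows below are centred on the densest run of pentamers (the first of equals), in capitals, in the 2 genes with 2 in 1 window (FOS and FOSL2) and in the 3 genes that passed the expression test.
FOS: ttgtgtttttaATTTATTTAttaagatgga
FOSL2: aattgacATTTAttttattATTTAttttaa
FOSL1: gagggcagctgctATTTAttttcctaaaga
JUND: tcgattctgccctATTTAtgtttctactcg
ATF3: cctcaactccaggATTTAggccttaacaca

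The AP-1 mRNA pool of these cells was made mainly of FOSL1 and JUND, and FOS itself was scarce. Levels of different genes are compared in FPKM, in which the authors scaled each gene by its length and each library by its depth. FOSL1 was at 118 ± 2.98 FPKM (SD, n = 3) in controls, above 98.9% of the 28339 genes in the FPKM table by its mean over all libraries. JUND followed at 75.5 ± 3.52 FPKM, JUNB at 35.2 ± 0.62, JUN at 22.0 ± 1.08 and FOSL2 at 17.0 ± 0.57 (SD, n = 3 each). ATF3, a stress-induced factor, was at 1.54 ± 0.17, FOS at 0.70 ± 0.08 and FOSB at 0.14 ± 0.03 FPKM. This order held in each of the 6 libraries, and no 2 neighbours in it overlapped in their values over the 6 libraries.

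**Figure D1:**
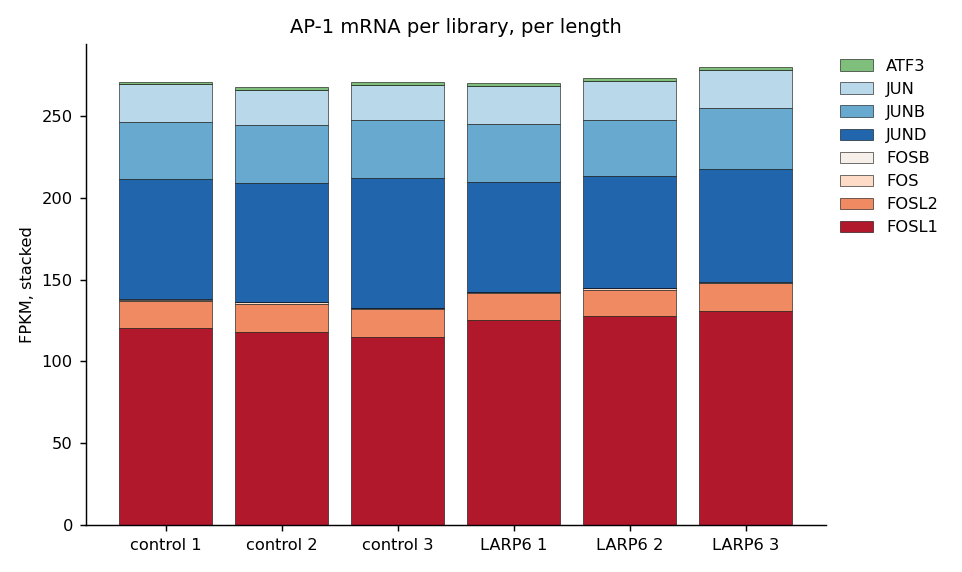
FPKM of the 8 AP-1 genes stacked from 0 in each of the 6 libraries (x axis: control 1 to 3 and LARP6 1 to 3), FOS family in reds, JUN family in blues, ATF3 in green. FOSL1 and JUND fill most of each bar, and the totals run from 268 to 280 FPKM.

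FOSL1 took a larger share of this pool in the LARP6 libraries and JUND a smaller one. Of the summed FPKM, FOSL1 made up 44.6%, 44.0% and 42.4% in control libraries 1 to 3, against 46.4%, 46.7% and 46.8% in LARP6 libraries 1 to 3. JUND made up 27.3%, 27.2% and 29.4% in the controls and 25.0%, 25.1% and 24.8% in the LARP6 libraries. The groups did not overlap for either share. They also did not overlap for FOSL2, at 6.04% to 6.48% in controls and 5.81% to 6.01% with LARP6. The same held for ATF3, at 0.49% to 0.61% and 0.68% to 0.75%. The shares of FOS, FOSB, JUN and JUNB overlapped. The FPKM of FOSL2 itself overlapped too, at 16.4 to 17.4 in controls and 15.9 to 16.7 with LARP6. In CPM, 22.3% of all genes tested had groups that did not overlap. Shares of 1 total are tied to each other. The ratio of FOSL1 to JUND was 1.56 ± 0.10 for the controls against 1.87 ± 0.01 with LARP6 (SD, n = 3 each). The ratio of FOSL1 to JUN was 5.36 ± 0.15 for the controls and 5.46 ± 0.12 with LARP6, and the groups overlapped. The summed FPKM of the FOS family was 136 ± 2.58 in controls and 145 ± 2.97 in LARP6 libraries, a difference of 7.09%. For the JUN family it was 133 ± 3.26 and 128 ± 2.05, a difference of -3.93%. Summed over all 8 genes it was 270 ± 1.70 and 275 ± 4.95 FPKM (SD, n = 3 each), and the groups overlapped. These sums are descriptions and were not tested. CPM does not divide by length and carries TMM scaling. In CPM the FOS family differed by 2.38%, the JUN family by -4.28% and all 8 genes by -0.39%.

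In the comparison of LARP6 with control libraries, JUND fell, FOSL1 and ATF3 rose, and the other 5 AP-1 genes did not pass the test. The changes were small: -10.7% for JUND, 6.95% for FOSL1 and 26.2% for ATF3. Over all 16226 genes tested with edgeR's quasi-likelihood test, 2.43% were called higher and 3.6% lower at an adjusted p below 0.05, and 6.03% in either direction. The 2 higher and 1 lower AP-1 genes are to be read against those shares. The AP-1 genes were chosen with earlier results of these data known, so this is not an independent comparison. The groups did not overlap for those 3 of the 8 genes, against 22.3% of all genes tested. The median log2 fold change was 0.04 over the 8 and 0.004 over all genes. In bulk RNA, fewer cells of a type and less RNA per cell cannot be told apart.

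**Figure D2:**
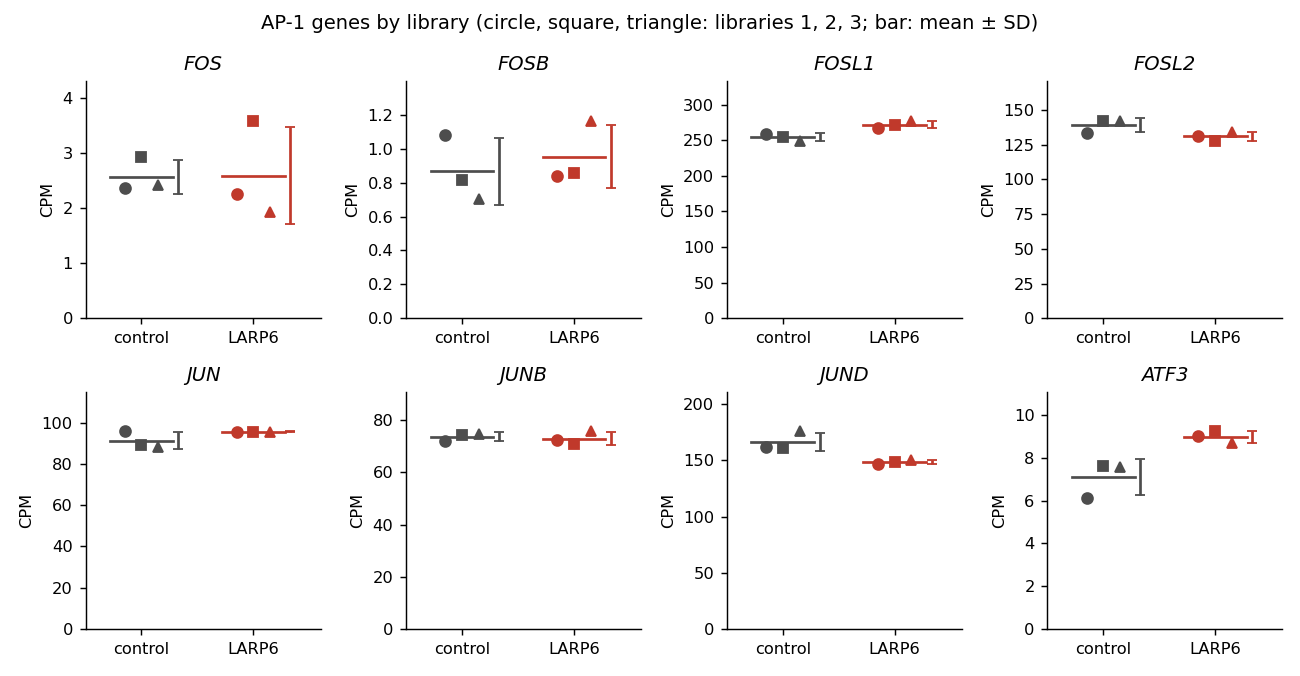
CPM of each AP-1 gene (y axes from 0) by group, with a point per library (circle, square and triangle for libraries 1, 2 and 3), a line at the mean and an error bar of 1 SD (n = 3). JUND is lower, and FOSL1 and ATF3 are higher, in all 3 LARP6 libraries than in any control.

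JUND, the JUN member known for steady expression in resting cells, had the smallest p of the 8. JUND (ENSG00000130522.6, chromosome 19 from 18279760 to 18281622, minus strand) is a gene of 1 exon. Coordinates here and below are those of GENCODE v29 on GRCh38. It was at 162, 161 and 176 CPM in control libraries 1, 2 and 3. It was at 147, 149 and 150 CPM in LARP6 libraries 1, 2 and 3. Control library 3 was the highest of the 6, and the lowest control was above the highest LARP6 library. The log2 fold change was -0.16 ± 0.03 (SE, edgeR adjusted p = 0.000108), the 112th smallest p of all genes. It passed in all 6 fits that left out a library, with adjusted p from 9.98e-05 to 0.0173. The change was smallest, at -0.12 ± 0.03, without control library 3.

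JUND had the most GC-rich transcript of the 8, at 69.7% GC, and its call depended on how GC content and length were handled. Genes called lower had a median transcript GC content of 57.7% and those called higher 42.8%, against 48.6% over all tested genes. Their median transcript lengths were 2289 and 4941 bases, against 3222 over all tested genes, and the JUND transcript had 1863. The medians and the trend below use each gene's longest transcript, whereas values of single AP-1 genes are for the coding transcript chosen. With each library's smooth trend on GC content and length taken out, JUND was at -0.10 ± 0.03 (log2, SE, edgeR adjusted p = 0.0508) and was no longer called. JUNB, at 64.9% GC, moved from -0.01 ± 0.04 to 0.05 ± 0.04 with these offsets and was called in neither fit. FOSL1, at 60.0% GC, moved from 0.10 to 0.16 ± 0.03 (edgeR adjusted p = 4.87e-06). With libraries of the same number also set as a block, JUND was called again, at -0.10 (edgeR adjusted p = 0.0494). The trend was fitted to the same 6 libraries, so it also takes up any group difference that goes with GC content or length. The part of GC content or of length in the JUND result was not tested beyond these values.

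**Figure D3:**
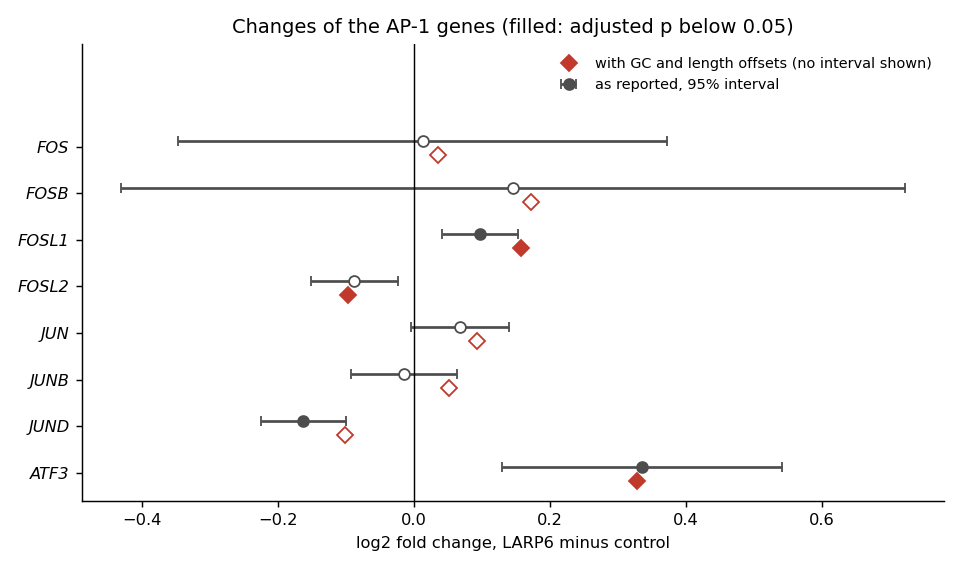
Log2 fold change of each AP-1 gene, LARP6 minus control, from edgeR with its 95% interval (circles) and with GC and length offsets (diamonds, no interval drawn), filled where the adjusted p was below 0.05. FOSL1 and ATF3 are filled in both, JUND only without the offsets and FOSL2 only with them.

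The other 2 JUN genes did not pass. JUN (ENSG00000177606.8, chromosome 1 from 58780788 to 58784327, minus strand, 1 exon) encodes c-Jun, the family's main activator. It was at 95.8, 89.4 and 88.4 CPM in control libraries 1, 2 and 3 and at 95.7, 95.7 and 95.4 CPM in the LARP6 libraries. Control library 1 lay at the level of the LARP6 libraries, so the groups overlapped. The log2 fold change was 0.07 ± 0.04 (SE, edgeR adjusted p = 0.305), with a 95% interval of -0.30% to 10.2% in percent change. JUNB (ENSG00000171223.6, chromosome 19 from 12791496 to 12793315, plus strand, 1 exon) can oppose c-Jun on some promoters. Its controls were at 71.8, 74.5 and 74.8 CPM and its LARP6 libraries at 72.2, 70.9 and 75.7 CPM, with overlapping groups. Its log2 fold change was -0.01 ± 0.04 (SE, edgeR adjusted p = 0.890), and the interval in percent change ran from -6.20% to 4.48%. JUNB lies within HOOK2 on the opposite strand, a gene at 10.9 CPM in controls. The kit kept strand per the labels. Whether the counting used it is not stated in the sources used here.

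FOSL1, which encodes FRA-1, was the most abundant AP-1 mRNA and rose slightly. FOSL1 (ENSG00000175592.9, chromosome 11 from 65892049 to 65900573, minus strand, 4 exons) was at 259, 255 and 249 CPM in control libraries 1, 2 and 3. In LARP6 libraries 1, 2 and 3 it was at 267, 271 and 278 CPM, each above every control. The log2 fold change was 0.10 ± 0.03 (SE, edgeR adjusted p = 0.0201). The call was lost in 4 of the 6 fits that left out a library. Leaving out control library 2 or 3 gave an adjusted p of 0.0755 or 0.0907, and leaving out LARP6 library 2 or 3 gave 0.0755 or 0.0821. Over the 6 fits the log2 fold change lay between 0.08 and 0.11.

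FOSL2, which encodes the related FRA-2, leaned the other way without passing. FOSL2 (ENSG00000075426.12, chromosome 2 from 28392448 to 28417312, plus strand, 4 exons) stood at 133, 142 and 142 CPM in the control group and at 131, 128 and 134 CPM with LARP6. Control library 1 lay within the LARP6 values. Its fitted difference was -0.09 ± 0.03 (log2, SE, edgeR adjusted p = 0.0875). It was called lower without control library 1, at -0.12 ± 0.04 (adjusted p = 0.0320), and with GC and length offsets, at -0.10 ± 0.03 (adjusted p = 0.0435). In FPKM the ratio of FOSL1 to FOSL2 was 6.93 ± 0.39 for the controls against 7.87 ± 0.15 with LARP6 (SD, n = 3 each), a description with no test.

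FOS and FOSB, the classical immediate early members, did not pass, and their intervals were wide. FOS (ENSG00000170345.10, chromosome 14 from 75278774 to 75282230, plus strand, 4 exons) had 72, 86 and 79 counts in control libraries 1 to 3. It had 67, 109 and 61 counts in LARP6 libraries 1 to 3. LARP6 library 2 was the highest of the 6 and LARP6 library 3 the lowest. FOS in LARP6 library 2 was at 3.58 CPM, with an exact 95% Poisson interval of 2.94 to 4.32 CPM. In LARP6 libraries 1 and 3 it was 2.24 CPM (interval 1.74 to 2.85) and 1.92 CPM (interval 1.47 to 2.47), below that interval. The intervals cover counting error only. The log2 fold change of FOS was 0.01 ± 0.18 (SE, edgeR adjusted p = 0.982), and the 95% interval in percent change ran from -21.4% to 29.4%. Without LARP6 library 2 it was -0.30 ± 0.21 (adjusted p = 0.547).

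FOSB (ENSG00000125740.14, chromosome 19 from 45467995 to 45475179, plus strand, 4 exons) had 33, 24 and 23 counts in the controls and 25, 26 and 37 in the LARP6 libraries. LARP6 library 3 was the highest and the groups overlapped. Its log2 fold change was 0.15 ± 0.29 (SE, edgeR adjusted p = 0.846), with an interval of -25.8% to 65.0% in percent change. FOSB lies within the annotated span of ERCC1 on the opposite strand, a repair gene with 14735 counts over the 6 libraries and a difference of -0.07 ± 0.04 (log2, SE, edgeR adjusted p = 0.275). Its part in the FOSB count was not tested. Full-length FOSB and its truncated splice form are not told apart by 1 count per gene.

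ATF3 had the largest relative change of the 8. ATF3 (ENSG00000162772.17, chromosome 1 from 212565334 to 212620777, plus strand, 4 exons in the transcript used) is induced by stress and represses or activates according to its partner. It was at 6.14, 7.59 and 7.59 CPM in control libraries 1, 2 and 3 and at 9.01, 9.24 and 8.67 CPM in LARP6 libraries 1, 2 and 3. Control library 1 was the lowest of the 6, and every LARP6 library was above every control. ATF3 differed by 0.34 ± 0.10 (log2, SE, edgeR adjusted p = 0.0337). The call was lost in 3 of the 6 fits that left out a library. Without control library 1 the change was 0.24 ± 0.11 (adjusted p = 0.228). The adjusted p was 0.115 without LARP6 library 1 and 0.139 without LARP6 library 2. DESeq2 gave the same size, 0.34 ± 0.13 (SE, unadjusted p = 0.0105), and set no adjusted p because of its own filter on mean counts.

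**Figure D4:**
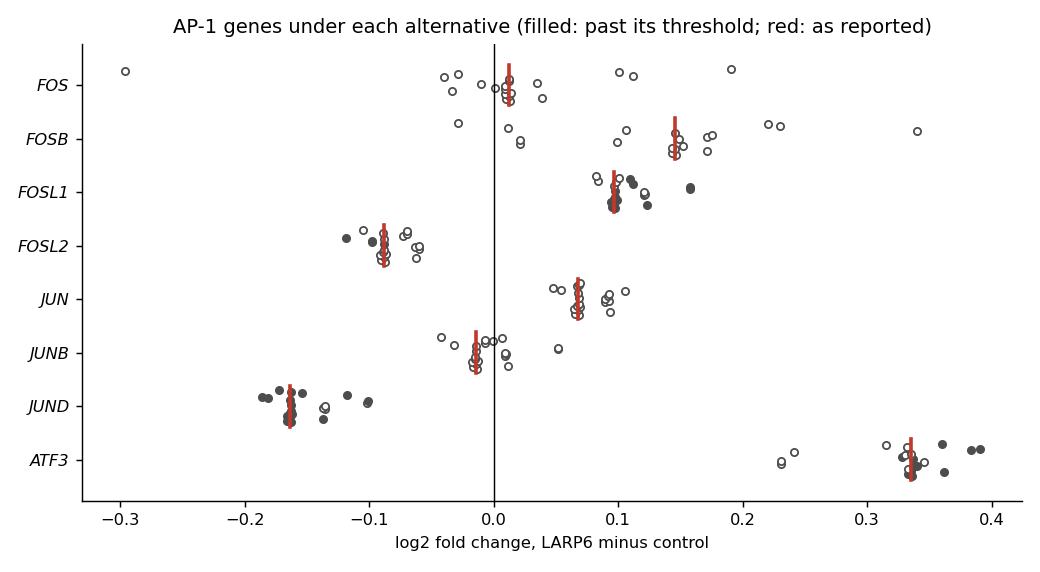
Log2 fold change of each AP-1 gene, LARP6 minus control, under each alternative (circles, filled where past that setting's threshold) and as reported (red bars). JUND, FOSL1, ATF3, FOSL2 and JUN keep 1 sign throughout, while FOS, FOSB and JUNB fall on both sides of 0.

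Genes that pair with AP-1 or act above it were counted against the 6.03% of all tested genes called in either direction. These lists and those in the paragraphs below were chosen with earlier results of these data known. Of 13 tested bZIP partners, edgeR called 0, and 1 had an unadjusted p below 0.05. DESeq2, which set an adjusted p for 7 of them, also called 0, with 1 at an unadjusted p below 0.05. Without LARP6 library 3, edgeR called 1 lower. The lowest p belonged to ATF4, the factor of the integrated stress response that also acts upstream of ATF3, at 238 ± 3.21 CPM for the controls and 225 ± 4.66 CPM with LARP6 (SD, n = 3 each), with an edgeR adjusted p of 0.0718. MAFF, a small MAF protein gene, came next at -0.08 ± 0.04 (log2, SE, edgeR adjusted p = 0.334). Of 23 genes of the MAP kinase cascade, which phosphorylates JUN and induces FOS, edgeR called 0, with 6 at an unadjusted p below 0.05. DESeq2, with an adjusted p for 19 of them, called 0, with 3 at an unadjusted p below 0.05. In edgeR 2 were called lower without LARP6 library 3, 1 higher without control library 2 and 1 higher with library-size scaling only. The kinase genes MAP2K3 and MAP2K2 had the lowest p, at -0.10 ± 0.03 and -0.07 ± 0.03 (log2, SE, edgeR adjusted p = 0.0589 and 0.0829). Of 12 genes for factors that induce FOS or JUN, such as SRF and CREB1, 1 rose. That gene was ELK3, an ETS factor that binds with SRF, whose mean went from 72.9 ± 1.43 to 81.3 ± 0.92 CPM (SD, n = 3 each). It differed by 0.16 ± 0.04 (log2, SE, edgeR adjusted p = 0.00336). With GC and length offsets 0 of the 12 were called higher by edgeR, against 1 at an unadjusted p below 0.05 without them and 1 called by DESeq2.

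Of 11 tested genes for turnover of AP-1 proteins or mRNAs, 1 fell and 10 were not called, where 3.6% of all tested genes were called lower and 2.43% higher. It was ITCH, a ubiquitin ligase known to target JUN and JUNB proteins, with controls at 269, 273 and 275 CPM and LARP6 libraries at 247, 250 and 253 CPM. Its groups did not overlap, and the log2 fold change was -0.12 ± 0.03 (SE, edgeR adjusted p = 0.00169). ZFP36, which encodes a protein that binds AU-rich elements, was at 19.5 and 19.9 CPM in the 2 groups (log2 fold change 0.03 ± 0.07, SE, edgeR adjusted p = 0.873). Its paralogues ZFP36L1 and ZFP36L2 were at 0.10 ± 0.03 and 0.07 ± 0.04 (log2, SE), ZFP36L1 with an edgeR adjusted p of 0.0524. These 3 were picked for their link to the elements printed above. In edgeR 1 gene of the list was called higher without LARP6 library 3, with library-size scaling only and with a filter of CPM above 1 in 3 libraries.

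Among 32 tested AP-1 target genes, 6 fell, 2 rose and 24 were not called, with a median log2 fold change of -0.02. Over all tested genes 3.6% were called lower and 2.43% higher. The list was chosen with earlier results of these data known, so this is not an independent comparison. Matrix metalloprotease genes MMP3, MMP9, MMP10 and MMP13 were too low to test. The cytokine genes IL6, CXCL8 and IL1B, which also answer to NF-kB, were at log2 fold changes of -0.55 ± 0.04, -0.66 ± 0.06 and -0.59 ± 0.10, and the glutathione transferase gene GSTP1 at -0.16 ± 0.03 (SE; edgeR adjusted p of 1.63e-22, 8.24e-18, 3.21e-05 and 2.68e-05). The other 2 that fell and the 2 that rose are named after their values were seen. Those that fell were the cytokine gene IL11 at -0.30 ± 0.08 and the metallothionein gene MT2A at -0.12 ± 0.03. Those that rose were HMGA2, a chromatin protein gene, at 0.17 ± 0.04 and the oxidoreductase gene NQO1 at 0.13 ± 0.03. With GC and length offsets 7 were called lower and 1 higher, and without LARP6 library 2 it was 1 higher and 5 lower.

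Of 17 other immediate early genes tested, 6 rose, 1 fell and 10 were not called, with a median log2 fold change of 0.10. Over all tested genes 2.43% were called higher and 3.6% lower. This list too was chosen with earlier results known, so the shares are not an independent comparison. EGR1, a zinc finger factor induced by the same signals as FOS, had controls at 4.63, 4.81 and 3.90 CPM and LARP6 libraries at 7.20, 8.64 and 6.68 CPM. LARP6 library 2 was the highest of the 6 for EGR1, as for FOS. The lowest was control library 3 for EGR1 but LARP6 library 3 for FOS. The log2 fold change of EGR1 was 0.76 ± 0.12 (SE, edgeR adjusted p = 1.15e-06). The Krüppel-like factor genes KLF4 and KLF6 were at 0.25 ± 0.04 and 0.13 ± 0.03, and IER3, a survival gene, at -0.17 ± 0.04 (log2, SE). The highest library was LARP6 library 3 for KLF4, LARP6 library 1 for KLF6 and control library 3 for IER3. DESeq2 and limma-voom did not call IER3. The genes called higher numbered 3 without control library 1 and 2 without LARP6 library 1.

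**Figure D5:**
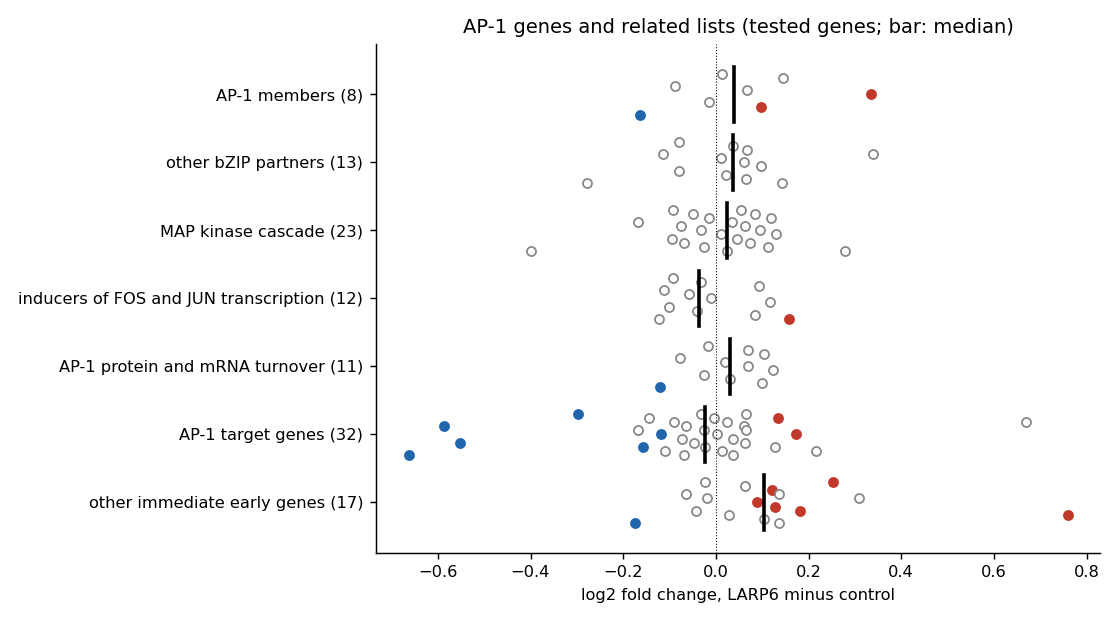
Log2 fold change, LARP6 minus control, of each tested gene in the 7 lists (number tested in brackets), red where called higher, blue where called lower and grey where not called, with a bar at each list's median. The AP-1 genes lie between -0.16 and 0.34, and the widest spread is among AP-1 target genes.

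Calls among all genes with an AP-1 motif in the promoter window are given as a description. Of 574 tested genes with TGACTCA in a RefSeq window, 3.14% were called higher and 4.18% lower, against 2.66% and 3.86% of the 11142 tested genes with a window. Of 419 with TGACGTCA, 2.15% were called higher and 5.25% lower. Of 232 with TGACATCA, 5.17% were called higher and 3.45% lower. Of 4187 protein-coding genes with TATTTAT in the 3′ UTR, 4.32% were called higher and 2.39% lower, against 2.68% and 4.21% of the 12819 with a 3′ UTR. AU-rich UTRs go with low GC content, which moved with the calls, as did transcript length (both given for JUND). The part of either here was not tested.

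The patterns of the 3 called members over the 6 libraries were matched against 10575 protein-coding genes with a mean of at least 5 CPM, by Pearson's r of log2 CPM. JUND was closest to CERS4 (r = 0.998), LSM4 (0.998) and RPL27A (0.996), ATF3 to CLIP4 (0.999), MSH5 (0.998) and CCN2 (0.995), and FOSL1 to NUP210 (0.990), FAT4 (0.990) and TMED7-TICAM2 (0.987). With 6 libraries in 2 groups many genes share a pattern, and 118, 47 and 36 genes had r above 0.95 with JUND, ATF3 and FOSL1.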

How the data were processed

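mRNA was sequenced with a strand-keeping kit, per the labels. The authors deposited whole-number counts for each gene and, in another file, FPKM values, which scale counts by gene length and depth, for all 6 libraries. The submitters' processing notes name HISAT2, DESeq2 and GRCh38 with no version. Which counter, strand setting and annotation made the values is not given in the sources used here. Libraries of 1 group differed by more than sampling noise (chi-square of 2.06 to 3.62 per gene), so none is a copy of another, and each was counted as 1 sample. That does not show separate cultures.

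Counts were tested with edgeR 4.0.16 in R 4.3.3: expression filter, TMM scaling, robust quasi-likelihood test of LARP6 against control with no covariate, Benjamini-Hochberg adjustment over 16226 genes and calls below 0.05. The standard error is the log2 fold change over the root of its F statistic. The script was checked on counts simulated with the spread fitted here and no GC or length trend. That check does not bear on such a trend. Levels are CPM with TMM-scaled library sizes. The AP-1 genes and the 6 related lists were chosen with earlier results of these data known. From each list the text names up to 4 called genes with the smallest p, or the 2 smallest where none passed, and each called member's 3 closest genes. Genes named outside this rule included ZFP36, ZFP36L1 and ZFP36L2, and the target genes IL11, MT2A, HMGA2 and NQO1.

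Alternatives were RLE, upper-quartile or library-size scaling, LARP6 left out of the counts, other low-count filters, DESeq2 1.42.0, limma-voom and limma 3.58.1 on log2 of FPKM plus 1 or 0.1, a stricter threshold of 0.01, a replicate block, GC and length offsets (mgcv 1.9.3, 98.9% of tested genes), and each library left out. GENCODE v29 gave coordinates, exons and transcript sequence, and RefSeq GRCh38.p14 the promoters. Protein sequences were not used here.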

Additional observations from a re-analysis of the deposited data

How the results depend on the processing

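JUND, FOSL1, ATF3, FOSL2 and JUN kept their sign under each alternative run. As reported, 395 genes were called higher and 584 lower, with 2 AP-1 genes higher and 1 lower. Scaled by library size only, 687 were higher and 303 lower, with no change in the AP-1 counts. With DESeq2, 164 genes and 1 AP-1 gene were called higher, with the adjusted p of ATF3 unset, and without a low-count filter 1 AP-1 gene was higher, ATF3 being at an adjusted p of 0.0523. With GC and length offsets 175 genes were higher, 429 of the 979 reported calls were kept, and FOSL2 in place of JUND was the AP-1 gene called lower. Limma on log2 of FPKM called 37 higher and 53 lower with 1 added, 38 and 54 with 0.1 added, and 1 and 2 with 1 added and no filter. In these 3 fits 0 AP-1 genes were called higher and 0 lower, with 4 at an unadjusted p below 0.05, against 2 called by DESeq2 and 3 by limma-voom. At an adjusted p below 0.01, 148 genes were higher and 295 lower, with 0 AP-1 genes higher by edgeR (2 at an unadjusted p below 0.05) and JUND lower. With each library left out, 175 to 398 genes were higher and 281 to 642 lower, with 0 to 1 AP-1 genes higher and 1 to 2 lower. The FOS family sum then differed by 5.92% to 8.09% and the JUN family sum by -4.87% to -2.585%, and in CPM the FOS family differed by 2.38%.

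Deviations from the group mean over all tested genes gave r = 0.03, 0.01 and 0.05 for libraries with the same number in the 2 groups. For different numbers r ran from -0.06 to 0.03. Values this small do not decide whether same-numbered libraries were paired, and pairing was not tested further. The replicate block called 518 genes higher and 827 lower. With the replicate block, 2 AP-1 genes were called lower, JUND and FOSL2 (FOSL2 adjusted p = 0.0454). With the block and the GC and length offsets together, 179 genes were higher, with 1 AP-1 gene higher (FOSL1) and 2 lower. The latter were FOSL2 (adjusted p = 0.0411) and JUND, called again at -0.10 (adjusted p = 0.0494), while ATF3 was not called (adjusted p = 0.0589). With the replicate block alone, 4 AP-1 target genes were higher and 10 lower, 2 MAP kinase genes and 1 bZIP partner were lower, and 1 turnover gene was higher and 2 lower. Not every library correlated best with its own number. The cause of these shifts was not tested. FOS and FOSB had 23 to 109 counts per library, and the spread of FOS between LARP6 libraries was wider than counting error.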
